A study of Mus musculus with 24 samples.

Results

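The data cover 10 genes of methionine, cysteine and betaine metabolism: Mat2a, Ahcy, Bhmt, Bhmt2, Dmgdh, Sardh, Cbs, Cth, Cdo1 and Csad. They were taken by symbol, with Ensembl identifiers matched to the GRCm38 annotation, and are 10 of the 55335 genes counted. All 10 are among the 16092 genes tested, those with a level of 1 CPM or more in any kidney. CPM is the unit of every level below. It is a gene's count per 1000000 counts on the tested genes, with each kidney's total scaled by TMM.

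Whole-kidney RNA was sequenced from 24 mice on the C57BL/6J background, 6 in each of 4 groups. The cKOm (male) and cKOf (female) mice were Pex5 lox/lox/Pax8-rtTA/LC1, a genotype in which doxycycline (DOX) turns on Cre in the cells that use the Pax8 promoter, here the renal tubule. Pex5 encodes the receptor that carries most matrix enzymes into peroxisomes. The Ctrlm and Ctrlf mice were littermates with the Pex5 lox/lox alleles alone, so all 4 groups carried the floxed gene and all received DOX, for 2 weeks from the age of 8 weeks. Kidneys came from mice killed 4 weeks after DOX had ended. Cells outside the Pax8 lineage keep Pex5 in this model and contribute to whole-kidney RNA, and a gene total cannot tell apart fewer cells of a type and less RNA per cell.

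Methionine is activated to S-adenosylmethionine, which donates methyl groups, and what remains is hydrolysed to homocysteine. Homocysteine is either methylated back to methionine, in part with betaine as the donor, or joined to serine and turned into cysteine by transsulfuration. Cysteine then feeds glutathione, sulfate and taurine, and the betaine that has lost a methyl group is stripped of its other methyl groups in mitochondria. Liver is the main site of this chemistry in the body, and the kidney, chiefly its proximal tubule, also carries it out.

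Each kidney had 19376152 to 28470831 counts on genes. Kidneys of 1 group differed by more than sampling noise in all 60 pairs, their chi-square being 9.83 to 99.2 times its degrees of freedom. Pex5 itself was measured at 49.1 to 62.8 CPM in Ctrlm kidneys (median 53.3) and at 41.8 to 47.3 CPM in cKOm kidneys (median 43.0), with no overlap. Its log2 fold change was -0.31 ± 0.08 (SE) in males, with an adjusted p of 0.0219 by the edgeR quasi-likelihood test. In females Pex5 ranged from 43.0 to 61.7 CPM in Ctrlf and from 38.0 to 48.5 CPM in cKOf, and its log2 fold change of -0.21 ± 0.08 (SE) did not pass the threshold, with an adjusted p of 0.177. Counts were summed over all Pex5 exons, so they do not separate a recombined transcript from an intact one.

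Albumin (Alb), the main liver transcript, set 5 kidneys apart. It was over 100 CPM in 4 of 6 Ctrlm kidneys, at 456, 547, 662 and 224 CPM in replicates 1 to 4, and in cKOm replicate 4, at 235 CPM. The other 19 kidneys held 15.1 to 60.2 CPM. All 20 markers on a liver list were tested, and their summed level in Ctrlm had a median of 986 CPM (248 to 1215), against 356 CPM for cKOm (256 to 863). Female medians were 158 CPM for Ctrlf (141 to 193) and 161 CPM for cKOf (125 to 229). Some of the 20 were present in every kidney: Serpina1d at 21.8 to 231 CPM, Ttr at 14.6 to 109 CPM and Fga at 11.3 to 50.1 CPM. Others were at 0 in some kidneys, Tat in 8, Arg1 in 5 and Cps1 in 4. How much of the summed level comes from the kidney itself was not tested. In cKOm against Ctrlm, 4 of the 20 were lower and 1 was higher at an adjusted p under 0.05. Alb itself had a log2 fold change of -2.38 ± 0.67 (SE, adjusted p = 0.0353 in edgeR) in males. An exact two-sided permutation test of the mean log2 CPM of Alb gave p = 0.117 in males, and p = 0.0433 without Ctrlm replicate 6, and p = 0.472 in females. Mat1a, the liver form of the enzyme that makes S-adenosylmethionine and a gene picked out after its values were seen, was at 6.26 to 13.2 CPM in the 4 Ctrlm kidneys over 100 CPM of Alb and at 0 and 0.261 CPM in the other 2. It was at 5.08 CPM in cKOm replicate 4 and at 0 to 0.686 CPM in the other 5 cKOm kidneys. Each comparison below was therefore also fitted with a liver score, the mean log2 CPM of the liver markers, as a covariate, and without the 5 kidneys, which left 2 Ctrlm and 5 cKOm.

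The kidney's own markers moved as well. The summed level of 16 proximal tubule markers ran from 17411 to 20549 CPM in Ctrlm and from 14720 to 16778 CPM in cKOm, and 8 of the 16 were lower and 0 higher in cKOm at an adjusted p under 0.05 in edgeR. Of 10 distal nephron markers, 3 were higher and 1 was lower. In females none of the 16 proximal tubule markers passed the edgeR threshold, 3 of them had an unadjusted p under 0.05, and their summed level was 17521 to 19218 CPM in Ctrlf and 16655 to 19671 CPM in cKOf. Lrp2, at 1838 to 3748 CPM, and Slc12a1, at 1262 to 2197 CPM, were present in every kidney. Slc7a13, also on the proximal tubule list, ran from 0.0986 to 962 CPM. Of 5 adrenal markers, Cyp11b2 was at 0 in 24 kidneys, Cyp11b1 in 21, Cyp21a1 in 20, Mc2r in 2 and Star in 0, Star ranging from 0.991 to 2.27 CPM. The summed level of 4 adipose markers was 0.365 to 16.5 CPM in Ctrlm and 1.38 to 27.9 CPM in cKOm (median 3.57). In females it was 0.0476 to 60.6 CPM in Ctrlf (median 0.565) and 0.439 to 11.7 CPM in cKOf. Of the 3 adipose markers tested, 0 were called in either sex. The part of these differences in the results on methionine, cysteine and betaine genes was not tested beyond the liver fits.

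Per kilobase of exon, so that genes of different length can be compared, Mat2a had the highest level of the 10 genes in every group and Bhmt the lowest. In Ctrlm kidneys the mean level was 123 ± 19.2 CPM per kb (SD, n = 6) for Mat2a, 85.4 ± 7.55 CPM per kb for Cdo1 and 70.6 ± 12.4 CPM per kb for Bhmt2. Cth, Dmgdh, Csad and Sardh followed at 44.5 to 50.5 CPM per kb, with SDs of 3.93 to 10.3. Of the neighbours in that order, Dmgdh and Csad, and Csad and Sardh, differed by less than the SD of either gene, while Cth and Dmgdh differed by less than the SD of Cth but more than that of Dmgdh. Cbs was at 24.4 ± 7.27 and Ahcy at 17 ± 4.20 CPM per kb. Bhmt stood far below them at 1.10 ± 0.55 CPM per kb. In Ctrlf kidneys Bhmt was at 5.04 ± 2.17 CPM per kb, still the lowest, while Ahcy and Cbs were next to each other at 10.8 ± 3.74 and 10.6 ± 2.14 CPM per kb.

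The main comparison asks how tubular deletion of the peroxisomal import receptor affects these transcripts in each sex. In males 7 of the 10 genes were called, which here means an adjusted p under 0.05, and all 7 were lower in cKOm: Csad, Ahcy, Cbs, Dmgdh, Bhmt2, Cdo1 and Cth. Over all tested genes 9.05% were called in males and 4.90% were called lower. The 10 genes were chosen with earlier results of these data known, so these shares side by side are a description. The median log2 fold change was -0.64 for the 10 genes and 0.01 for all tested genes. Every cKOm kidney lay below every Ctrlm kidney for 6 of the 10 genes, against 3.69% of all tested genes. In females 1 of the 10 was called, Bhmt, against 0.851% of all tested genes. The median log2 fold change in females was -0.09 for the 10 genes.

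**Figure D1:**
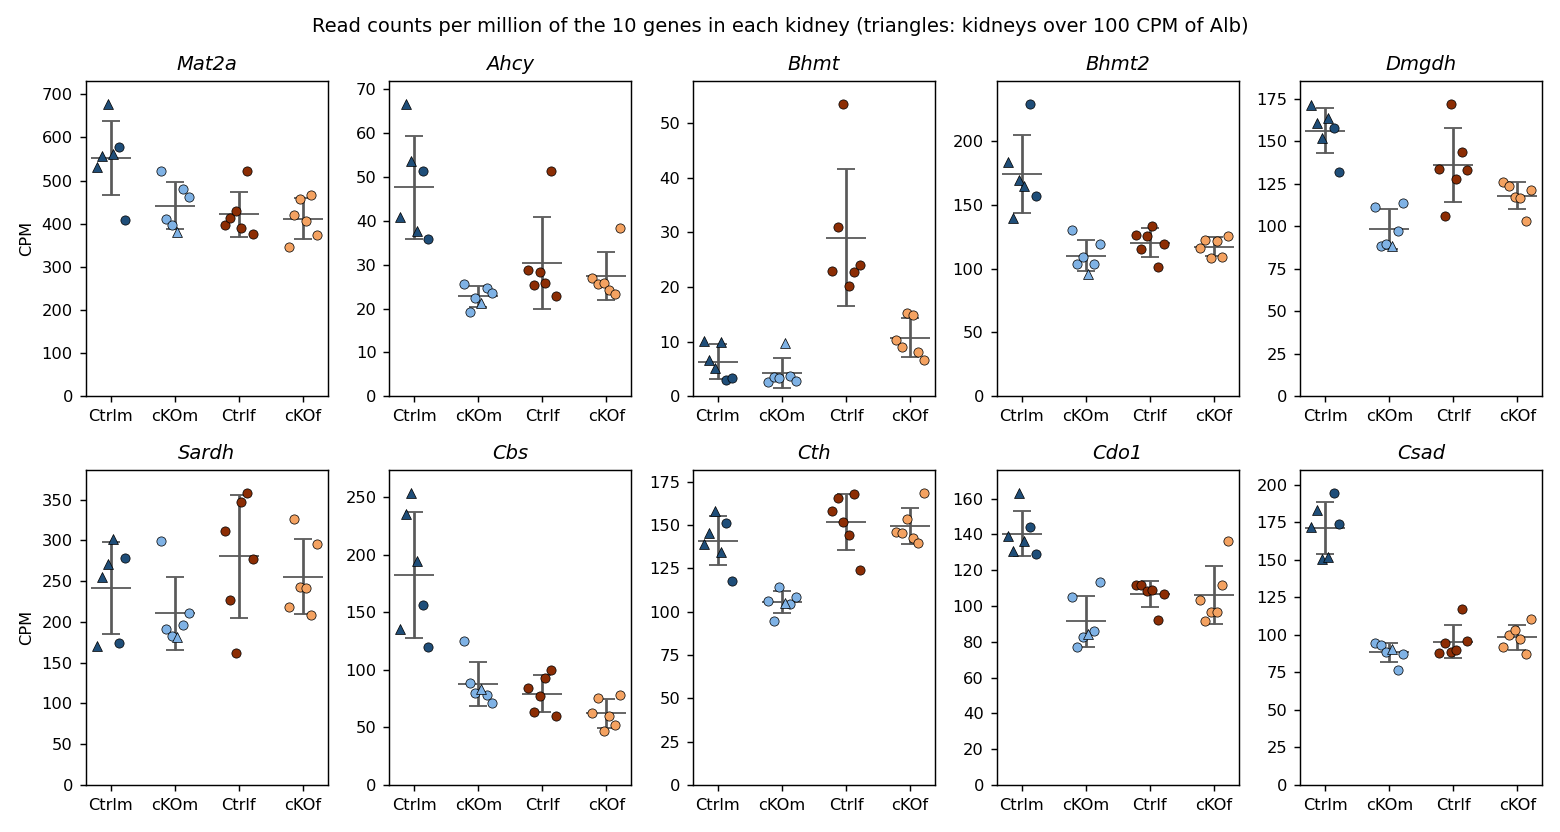
Level of each of the 10 genes in CPM, on a linear axis from 0, in the 24 kidneys. Each point is 1 kidney, triangles are the 5 kidneys over 100 CPM of Alb, and bars give the mean and SD of 6 kidneys. Cth, Bhmt2, Ahcy, Dmgdh, Cdo1 and Csad show cKOm kidneys entirely below Ctrlm kidneys, and Bhmt shows cKOf kidneys entirely below Ctrlf kidneys.

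In the methionine cycle, Mat2a and Ahcy act one after the other. Mat2a (chr6:72432799-72439558, minus strand) encodes the form of methionine adenosyltransferase found outside the liver, which makes S-adenosylmethionine. It ranged from 410 to 677 CPM in Ctrlm (median 558) and from 381 to 521 CPM in cKOm (median 436). The groups overlapped, and 2 cKOm kidneys were below all Ctrlm kidneys. With a log2 fold change of -0.32 ± 0.11 (SE), its adjusted p of 0.0794 missed the threshold. It passed without Ctrlf replicate 5 (adjusted p = 0.0357), without Ctrlm replicate 6 (adjusted p = 0.00865), without cKOm replicate 1 (adjusted p = 0.0463), with p values adjusted within each sex (adjusted p = 0.0442) and in DESeq2 (adjusted p = 0.0287). Without the 5 kidneys over 100 CPM of Alb the Mat2a log2 fold change was -0.16 (adjusted p = 0.727).

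Ahcy (chr2:155059310-155074497, minus strand) encodes S-adenosylhomocysteine hydrolase, the enzyme that removes the inhibitor left by methyl transfer and releases homocysteine. It ran from 35.8 to 66.6 CPM in Ctrlm (median 46.2) and from 19.2 to 25.6 CPM in cKOm (median 23). All 6 cKOm kidneys were lower than all 6 Ctrlm kidneys, and the mean level was 52.2% lower. This was a log2 fold change of -1.07 ± 0.17 (SE, adjusted p = 0.000151), and it was -0.96 (adjusted p = 0.0348) without the 5 kidneys with most Alb. In females the 2 groups overlapped, at 22.8 to 51.4 CPM in Ctrlf and 23.3 to 38.5 CPM in cKOf, with a log2 fold change of -0.15 ± 0.17 (SE, adjusted p = 0.752). The level of Ahcy is uncertain because 68.7% of the 50-base stretches of its transcripts also occur in other annotated genes, chiefly Gm4737, Gm9826 and Gm5638.

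Betaine hands its first methyl group to homocysteine through Bhmt, and the related enzyme Bhmt2 uses S-methylmethionine as its donor. Dmgdh and Sardh are mitochondrial enzymes that remove the remaining methyl groups, from dimethylglycine and from sarcosine. Bhmt (chr13:93616675-93637961), Bhmt2 (chr13:93655720-93674302) and Dmgdh (chr13:93674433-93752833) lie side by side on mouse chromosome 13 in GRCm38, with 17758 bases between the first 2 genes. Bhmt2 is read from the minus strand and Dmgdh from the plus strand. The RefSeq starts, 93674302 for Bhmt2 and 93674436 for Dmgdh, the latter slightly inside the gene as given above, are 134 bases apart with 133 bases between them, so 1 window holds both. It is shown because both genes were called lower in males. The window chr13:93674253-93674552 (minus strand, 5′ to 3′ in the direction of Bhmt2, RefSeq on GRCm38.p6) has the bases between the starts in capitals:

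Bhmt2 and Dmgdh: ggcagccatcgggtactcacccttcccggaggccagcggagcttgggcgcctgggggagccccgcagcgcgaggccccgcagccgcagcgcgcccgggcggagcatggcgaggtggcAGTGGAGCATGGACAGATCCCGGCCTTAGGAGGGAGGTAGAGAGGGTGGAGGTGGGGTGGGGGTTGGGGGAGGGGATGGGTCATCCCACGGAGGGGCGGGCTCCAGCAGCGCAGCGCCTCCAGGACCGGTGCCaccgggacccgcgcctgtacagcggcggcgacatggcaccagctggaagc

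The Bhmt window, chr13:93637709-93638008 on the minus strand, is the RefSeq promoter of the single member called in females. Most of the window lies inside the gene as given above, which starts at 93637961 on that strand. The first marked stretch is upstream of that start and the others are inside the gene. Capitals mark the letters AGGTCA, a nuclear receptor half-site in textbooks, searched on both strands:

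Bhmt: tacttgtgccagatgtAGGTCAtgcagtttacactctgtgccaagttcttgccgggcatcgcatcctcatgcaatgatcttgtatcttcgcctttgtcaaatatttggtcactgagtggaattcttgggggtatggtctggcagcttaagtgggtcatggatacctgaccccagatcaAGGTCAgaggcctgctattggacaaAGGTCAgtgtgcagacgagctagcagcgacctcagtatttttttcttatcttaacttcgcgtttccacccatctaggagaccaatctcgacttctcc

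The Bhmt2 window had a GC content of 73.7% with 26 CpG, and the Bhmt window 48.0% with 8 CpG. The median of 32851 promoter windows of 300 bases was 52.7% with 7 CpG. AGGTCA occurred 3 times in the Bhmt window, once in those of Ahcy and Sardh and in none of the other member windows, and 16.3% of all promoter windows hold it at least once. GGGCGG, searched in the same way, occurred 2 times in each of the Bhmt2, Dmgdh and Cbs windows, of which the first 2 overlap, 3 times in the Mat2a window and once in those of Ahcy and Csad, against 35.7% of all promoter windows with at least 1. These are matches of letters alone. Windows were matched for 8 of the 10 genes, and Cth and Cdo1 had no entry.

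Bhmt2 ranged from 140 to 229 CPM in Ctrlm (median 167) and from 96.0 to 130 CPM in cKOm (median 106). No kidney of one group reached the other, and the mean was 36.6% lower. The log2 fold change of Bhmt2 was -0.66 ± 0.10 (SE, adjusted p = 4.62e-05) and -0.81 (adjusted p = 0.000903) without the 5 kidneys with most Alb. In females Bhmt2 was at 101 to 134 CPM in Ctrlf and 108 to 126 CPM in cKOf, with a log2 fold change of -0.04 ± 0.10 (SE, adjusted p = 0.915). Its neighbour Dmgdh ranged from 132 to 171 CPM in Ctrlm (median 159) and from 88.1 to 114 CPM in cKOm (median 93.4), again without overlap. The log2 fold change of Dmgdh was -0.67 ± 0.09 (SE, adjusted p = 2.56e-05), and it was -0.57 (adjusted p = 0.0334) without the 5 kidneys. In females Dmgdh had a log2 fold change of -0.20 ± 0.09 (SE, adjusted p = 0.275), with 106 to 172 CPM in Ctrlf and 103 to 126 CPM in cKOf. Across the 24 kidneys, after removal of the group means, the log2 CPM of Bhmt2 and Dmgdh had a Pearson r of 0.34, a description over kidneys that share depth and composition.

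Sardh (chr2:27188393-27248337, minus strand) missed the threshold in both sexes. It was at 170 to 302 CPM in Ctrlm (median 263) and 182 to 299 CPM in cKOm (median 194), ranges that overlap almost entirely. Its male log2 fold change was -0.20 with a 95% interval of -0.55 to 0.16 (adjusted p = 0.655). In females it was -0.14 with a 95% interval of -0.49 to 0.22 (adjusted p = 0.785). The spread between kidneys of 1 group was wide for this gene, with 162 to 358 CPM in Ctrlf.

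Bhmt was the member called in females. There it was at 20.1 to 53.5 CPM in Ctrlf (median 23.4) and at 6.65 to 15.3 CPM in cKOf (median 9.67). All 6 cKOf kidneys were below all 6 Ctrlf kidneys, which was so for 0.292% of all tested genes. The log2 fold change was -1.44 ± 0.32 (SE, adjusted p = 0.00543), a level 63.1% lower, and leaving out any 1 kidney kept it between -1.57 and -1.17 with adjusted p of 0.00138 to 0.0233. In males Bhmt was at 2.92 to 10.2 CPM in Ctrlm (median 5.92) and 2.65 to 9.78 CPM in cKOm (median 3.43). These ranges overlapped, and the log2 fold change of -0.57 ± 0.34 (SE) had an adjusted p of 0.442. The male and female fold changes of Bhmt were not shown to differ, since the interaction of genotype and sex was 0.86 ± 0.46 (SE, adjusted p = 0.433). It was 0.44 (adjusted p = 0.715) without cKOm replicate 4, and 1.44 (adjusted p = 0.109) without the 5 kidneys with most Alb. Of the 50-base stretches of Bhmt, 25.3% also occur in other genes, chiefly Gm5096 and Bhmt-ps1.

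Bhmt is also a liver transcript, so it was read beside Alb in each kidney. In males the kidneys with most Alb had the highest Bhmt. The 4 Ctrlm kidneys over 100 CPM of Alb held 10.2, 6.66, 5.19 and 9.85 CPM of Bhmt, and the other 2 held 2.92 and 3.33 CPM. The same was seen in cKOm, where replicate 4 held 9.78 CPM and the other 5 kidneys 2.65 to 3.75 CPM. Without the 5 kidneys the male log2 fold change of Bhmt was -0.01 (adjusted p = 0.996), and with the liver score as a covariate it was -0.11 (adjusted p = 0.951). Female kidneys had far more Bhmt at low Alb. Bhmt was 55.4% to 206% of Alb in Ctrlf kidneys and 12.0% to 59.3% in cKOf kidneys, while it was 0.783% to 4.39% of Alb in the 5 male kidneys with most Alb. In the other 7 male kidneys it was 7.68% to 22% of Alb, a range that overlaps that of cKOf. The female log2 fold change of Bhmt was -1.39 (adjusted p = 0.00495) with the liver score as a covariate.

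Within groups, 4 correlations of log2 CPM of Bhmt with Alb were computed over 6 kidneys each, and none passed an exact two-sided permutation test. In Ctrlm Pearson's r was 0.76 (exact p = 0.106, adjusted p = 0.211) and Spearman's rho 0.43 (exact p = 0.419). In cKOm r was 0.90 (exact p = 0.158, adjusted p = 0.211) and rho 0.03 (exact p = 1). In Ctrlf r was 0.16 (exact p = 0.706) and rho 0.54 (exact p = 0.297). In cKOf r was -0.75 (exact p = 0.113, adjusted p = 0.211) and rho -0.71 (exact p = 0.136). Without the 2 kidneys farthest from the group's median Alb, r became -0.76 for Ctrlm and -0.77 for cKOm, and among females -0.37 for Ctrlf and 0.06 for cKOf, so the positive values in males rest on the kidneys with extreme Alb.

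**Figure D2:**
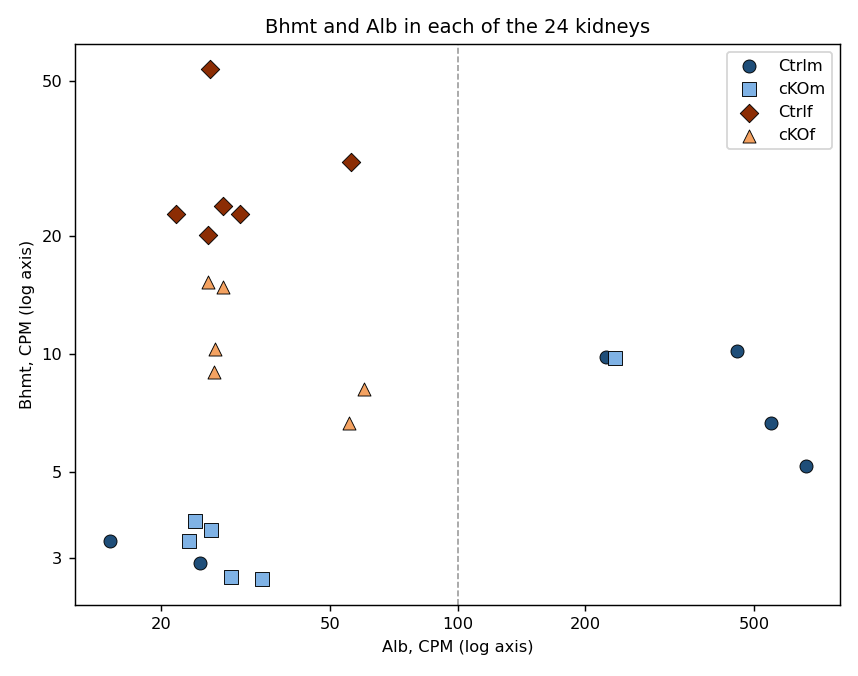
CPM of Bhmt (vertical, log axis) against CPM of Alb (horizontal, log axis) in each of the 24 kidneys, with symbols for the 4 groups and a dashed line at 100 CPM of Alb. The 5 male kidneys to the right of the line hold 5.19 to 10.2 CPM of Bhmt, the other male kidneys 2.65 to 3.75 CPM, and Ctrlf kidneys 20.1 to 53.5 CPM at low Alb.

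Transsulfuration starts with Cbs (chr17:31608894-31637238, minus strand), cystathionine β-synthase, and ends with Cth (chr3:157894248-157925077, minus strand), cystathionine γ-lyase, which releases cysteine. Cbs ranged from 120 to 254 CPM in Ctrlm (median 175) and from 70.9 to 125 CPM in cKOm (median 81.5). In cKOm 5 of 6 kidneys were below every Ctrlm kidney, and replicate 1, at 125 CPM, lay above the lowest Ctrlm kidney. Its log2 fold change was -1.06 ± 0.18 (SE, adjusted p = 0.000214), a level 52% lower. Cbs was also higher in the Ctrlm kidneys with most Alb, at a mean of 205 CPM in 4 against 138 CPM in 2. Without the 5 kidneys its log2 fold change was -0.68 and missed the threshold (adjusted p = 0.131), and with the liver score as a covariate it was -0.88 (adjusted p = 0.0155). In females Cbs was at 59.5 to 99.7 CPM in Ctrlf and 47.2 to 78.6 CPM in cKOf, with a log2 fold change of -0.35 ± 0.17 (SE, adjusted p = 0.339).

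Cth had the smallest change of the 7 genes called in males. It was at 117 to 158 CPM in Ctrlm (median 142) and 94.4 to 114 CPM in cKOm (median 106), without overlap. This was a log2 fold change of -0.42 ± 0.08 (SE, adjusted p = 0.00103), a level 25.3% lower, and it kept its size but missed the threshold without the 5 kidneys with most Alb (-0.39, adjusted p = 0.120). With the liver score as a covariate it was -0.36 (adjusted p = 0.0295). In females Cth was at 124 to 168 CPM in Ctrlf and 140 to 168 CPM in cKOf, and its log2 fold change of -0.03 had a 95% interval of -0.19 to 0.14.

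Cysteine is oxidised by Cdo1, cysteine dioxygenase, on chromosome 18, and the product is decarboxylated on the way to taurine by Csad (chr15:102176999-102204724, minus strand), cysteine sulfinic acid decarboxylase. Csad had the smallest p of the 10 genes in males. It ran from 150 to 195 CPM in Ctrlm (median 173) and from 76.5 to 94.4 CPM in cKOm (median 89.4), with a clear gap between the groups. Its log2 fold change was -0.95 ± 0.08 (SE, adjusted p = 1.24e-08), a level 48.4% lower, and -1.10 (adjusted p = 9.99e-06) without the 5 kidneys with most Alb. In females Csad was at 87.7 to 117 CPM in Ctrlf and 87.4 to 110 CPM in cKOf, ranges that overlap each other and that of cKOm. The female log2 fold change of Csad was 0.04 with a 95% interval of -0.13 to 0.21. Zfp740 overlaps Csad on the opposite strand, and antisense or other opposite-strand genes overlap Bhmt, Mat2a, Ahcy, Dmgdh and Sardh. Their reads can be told apart only if counting used the strand, which the sources used here do not state. Gm43314 overlaps Cth on the same strand, where the strand cannot tell reads apart.

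Cdo1 was at 129 to 163 CPM in Ctrlm (median 138) and 77.3 to 113 CPM in cKOm (median 85.2), without overlap. Its log2 fold change was -0.62 ± 0.10 (SE, adjusted p = 0.00013), a level 34.9% lower. The value was -0.59 (adjusted p = 0.0317) without the 5 kidneys and -0.53 (adjusted p = 0.00678) with the liver score as a covariate. In females Cdo1 was at 92.1 to 112 CPM in Ctrlf and 91.8 to 136 CPM in cKOf, with a log2 fold change of -0.01 and a 95% interval of -0.21 to 0.20.

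**Figure D3:**
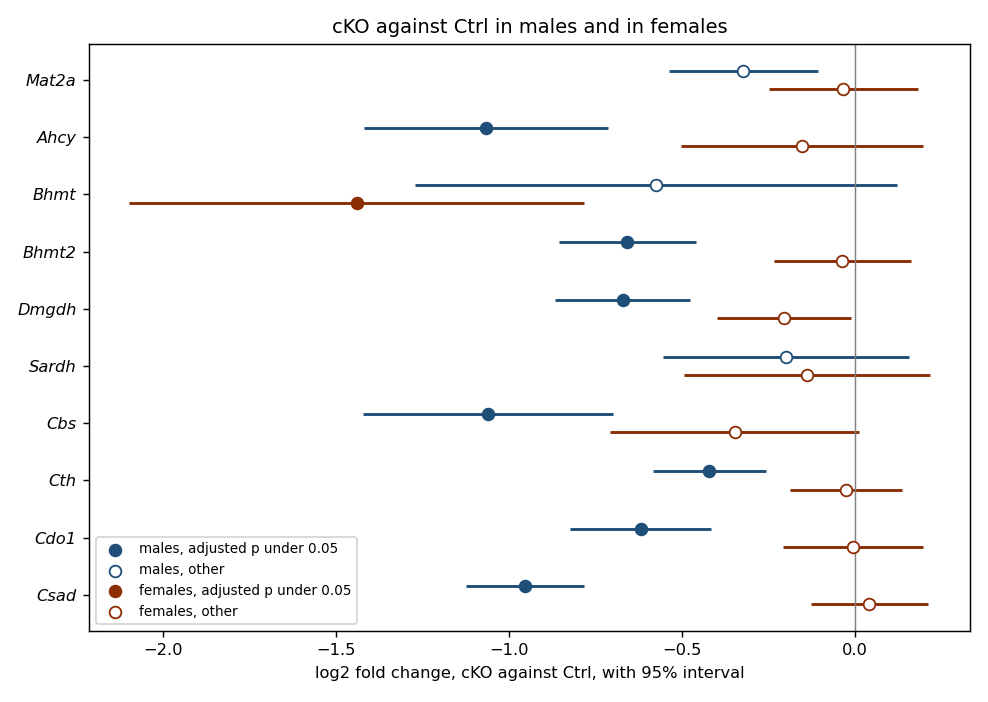
Log2 fold change of cKO against Ctrl kidneys (horizontal) for the 10 genes, in males and in females, with 95% intervals from the edgeR fit of 6 kidneys a group. Filled points passed an adjusted p of 0.05. In males 7 points are filled, all below 0, and in females 1, that of Bhmt at -1.44.

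Whether males and females responded differently was tested as the interaction of genotype and sex, for which 2.31% of all tested genes were called. The paper reports residual full-length Pex5 mRNA and detectable PEX5 protein in cKOf kidneys, and proposes incomplete excision there. By electron microscopy it found almost no peroxisomes in proximal tubules of cKO mice of either sex. Sex and the degree of deletion therefore cannot be told apart in this test. Of the 10 genes 4 were called: Csad at -0.995 ± 0.12 (SE, adjusted p = 8.73e-06), Bhmt2 at -0.62 ± 0.14 (SE, adjusted p = 0.00967), Cdo1 at -0.61 ± 0.14 (SE, adjusted p = 0.0128) and Ahcy at -0.91 ± 0.24 (SE, adjusted p = 0.0394). For each of them the male fold change was further below 0 than the female one. Csad and Bhmt2 also passed with the liver score as a covariate and without the 5 kidneys with most Alb. Cdo1 passed neither, at -0.53 (adjusted p = 0.0803) and -0.58 (adjusted p = 0.119), nor did Ahcy, at -0.89 (adjusted p = 0.122) and -0.80 (adjusted p = 0.201). Over all genes the main fit called 132 interactions above 0 and 240 below. Those counts were 87 and 171 with the liver score, and 62 and 192 without the 5 kidneys. The call of Ahcy was lost when any of 17 of the 24 kidneys was left out, with adjusted p of 0.00103 to 0.0756 over all 24, and it held without Ctrlf replicate 5, Ctrlm replicates 1, 4 and 6, cKOf replicates 4 and 5, or cKOm replicate 1. Cth and Dmgdh missed the threshold at -0.39 ± 0.11 (SE, adjusted p = 0.0602) and -0.47 ± 0.13 (SE, adjusted p = 0.0632). Cth passed without Ctrlf replicate 5 (adjusted p = 0.0307) or Ctrlm replicate 6 (adjusted p = 0.0161), and Dmgdh without any of Ctrlf replicates 3 and 5, Ctrlm replicate 6 and cKOm replicates 1 and 6 (adjusted p from 0.0157). DESeq2 called 6 of the 10, these 2 among them (adjusted p = 0.0207 for Cth and 0.0187 for Dmgdh), and Dmgdh also passed when 1 CPM was required in 6 kidneys (adjusted p = 0.0488).

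The sexes also differed in control kidneys. In Ctrlm against Ctrlf 7 of the 10 genes were called, against 16.8% of all tested genes: Cbs, Csad, Ahcy, Bhmt2, Cdo1 and Mat2a were higher in males and Bhmt was lower. The log2 difference, male against female, was 1.20 ± 0.18 (SE, adjusted p = 1.06e-05) for Cbs and 0.84 ± 0.08 (SE, adjusted p = 1.32e-08) for Csad. For Bhmt it was -2.19 ± 0.33 (SE, adjusted p = 1.69e-05), with no overlap between 2.92 to 10.2 CPM in Ctrlm and 20.1 to 53.5 CPM in Ctrlf. Bhmt2 was at 0.53 ± 0.10 (SE, adjusted p = 0.000192), opposite in direction to its neighbour. Every Ctrlm kidney was above every Ctrlf kidney for Cbs, Csad, Bhmt2 and Cdo1. The share of all tested genes without overlap was not computed for the comparisons between the sexes. Of the 20 liver markers 19 were higher in Ctrlm than in Ctrlf at an adjusted p under 0.05. Without the 5 kidneys with most Alb 4 of the 10 genes were called, and with the liver score as a covariate also 4, as Mat2a, Ahcy and Cdo1 no longer passed. Over all genes calls fell too, from 1402 higher and 1305 lower to 946 and 624 without the 5 kidneys. With the liver score they were 765 and 687. In these fits the log2 difference was 0.25 (adjusted p = 0.315) and 0.34 (adjusted p = 0.191) for Mat2a, beside 0.39. It was 0.54 (adjusted p = 0.166) and 0.61 (adjusted p = 0.134) for Ahcy, beside 0.65, and 0.38 (adjusted p = 0.0994) and 0.27 (adjusted p = 0.235) for Cdo1, beside 0.40.

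Among cKO kidneys fewer of these sex differences passed. In cKOm against cKOf 2 of the 10 genes were called, against 8.14% of all tested genes: Bhmt at -1.32 ± 0.34 (SE, adjusted p = 0.0117) and Cth at -0.50 ± 0.08 (SE, adjusted p = 7.62e-05). Cth was at 94.4 to 114 CPM in cKOm and 140 to 168 CPM in cKOf, without overlap. In control kidneys Cth was not called, at -0.11 ± 0.08 (SE, adjusted p = 0.413). The log2 difference of Csad was -0.16 ± 0.08 (SE, adjusted p = 0.281), with a 95% interval of -0.32 to 0.01, beside 0.84 in control kidneys. That of Cbs was 0.49 ± 0.18 (SE, adjusted p = 0.0846) beside 1.20, and it passed in DESeq2 (adjusted p = 0.0440). The comparisons between the sexes use the same kidneys as those between the genotypes, so they are no separate evidence, and the test of the change in a sex difference is the interaction given above.

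**Figure D4:**
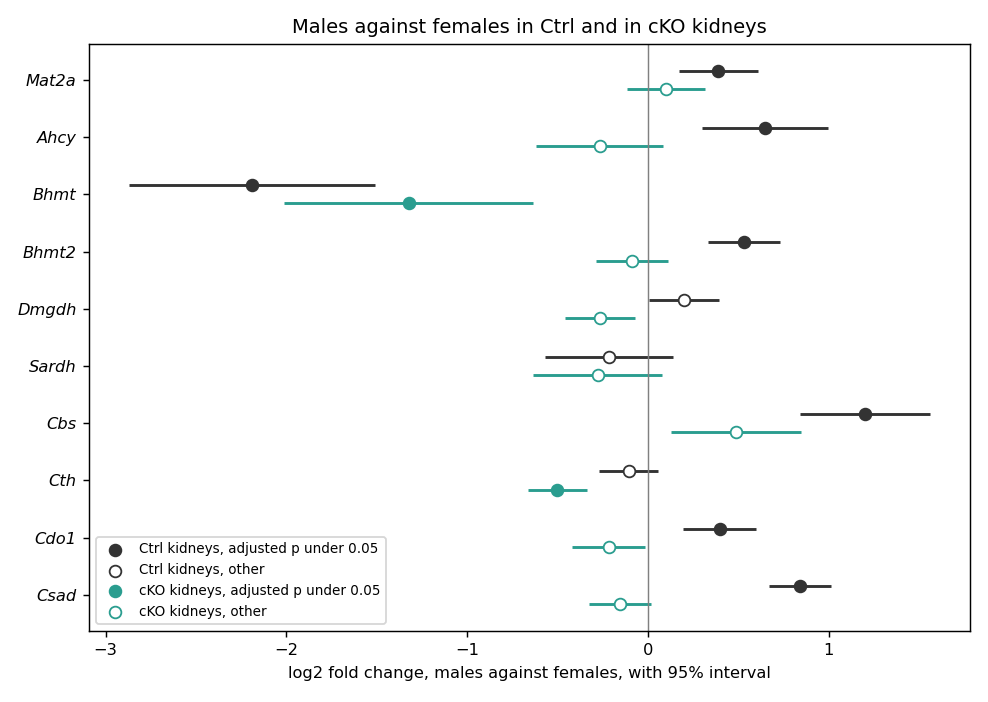
Log2 difference of males against females (horizontal) for the 10 genes in Ctrl kidneys and in cKO kidneys, with 95% intervals. Filled points passed an adjusted p of 0.05. In Ctrl kidneys 7 points are filled, 6 above 0 and Bhmt at -2.19, and in cKO kidneys 2, Bhmt at -1.32 and Cth at -0.50.

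Kidneys of 1 group also varied together for some of the 10 genes. Over the 24 kidneys, as deviations of log2 CPM from the group means, the highest Pearson r was 0.71, between Cth and Ahcy, followed by 0.62 between Cbs and Ahcy. The lowest were -0.39 between Bhmt and Sardh and -0.39 between Bhmt and Bhmt2. With the liver score the r was highest for Bhmt, at 0.46, and was between -0.14 and 0.30 for the other 9 genes. Of 14072 genes with a mean of at least 1 CPM, the most alike by the same measure were Glyat (r = 0.91) for Ahcy, Eci3 (r = 0.85) and Arpc5l (r = 0.83) for Bhmt2, and Mrpl21 (r = 0.83) and Atp5b (r = 0.81) for Csad. For Bhmt they were AI182371 (r = 0.78) and Fabp1 (r = 0.78). For the other members the 2 most alike were Cd300lg and H2-Ea-ps for Cbs, Mettl7a1 and Cyp4a12a for Cth, Acad9 and Slc20a1 for Mat2a, Serpina1d and Bcl6b for Dmgdh, Gm15265 and Klhl6 for Sardh, and Ube2q1 and Bola1 for Cdo1, with r of 0.71 to 0.82. These are the highest of many values over kidneys that share depth and composition, and they carry no test.

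The enzymes around these 10 genes were read from a list of 54, of which 53 were tested and Gadl1 was not. That list, too, was chosen with earlier results of these data known. In males 14 of the 53 were called, 12 lower and 2 higher in cKOm, beside 9.05% called and 4.90% called lower among all tested genes, with a median log2 fold change of -0.22 over the 53 and 0.01 over all tested genes. By branch, 3 of 13 genes of the methionine cycle and folate supply were called, 3 of 10 methyltransferases that use S-adenosylmethionine, 3 of 8 genes of choline, betaine and glycine, none of 8 genes of methionine salvage, of which 1 had an unadjusted p under 0.05 in edgeR, and 5 of 14 genes of cysteine, taurine and sulfide. In females edgeR called 0 of the 53, beside 0.851% of all tested genes, with 6 at an unadjusted p under 0.05. limma-voom called 1, Inmt at -0.72 (adjusted p = 0.0327), and DESeq2 called 1, Gclc at -0.45 (adjusted p = 0.0430).

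Among methyltransferases, Inmt, which methylates indoleamines, fell the most. It ran from 618 to 1174 CPM in Ctrlm and from 207 to 264 CPM in cKOm, with a log2 fold change of -1.86 ± 0.21 (SE, adjusted p = 9.03e-07). Tpmt, thiopurine methyltransferase, fell by 0.38 on the log2 scale (adjusted p = 0.000324). In the folate branch Shmt2, the mitochondrial serine hydroxymethyltransferase, had a log2 fold change of -0.70 ± 0.11 (SE, adjusted p = 0.000156), while its cytosolic counterpart Shmt1 was higher in cKOm at 0.44 ± 0.09 (SE, adjusted p = 0.00223). Ftcd, which passes formimino groups from histidine breakdown to folate, went from 12.4 to 104 CPM in Ctrlm to 4.54 to 29.9 CPM in cKOm. Its log2 fold change was -2.72 ± 0.60 (SE, adjusted p = 0.00464), and it missed the threshold without the 5 kidneys with most Alb (-2.38, adjusted p = 0.181).

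In the choline and betaine branch, Chdh, which oxidises choline toward betaine, had a log2 fold change of -0.47 ± 0.10 (SE, adjusted p = 0.00414) and Aldh7a1, which can complete that oxidation, one of -0.38 ± 0.10 (SE, adjusted p = 0.0170). Pipox, a sarcosine oxidase that resides in peroxisomes, had -0.56 ± 0.10 (SE, adjusted p = 0.000301). Past cysteine, the mitochondrial sulfide-oxidising enzyme Ethe1 had -1.05 ± 0.13 (SE, adjusted p = 2.57e-06), at 45.2 to 75.8 CPM in Ctrlm and 24.4 to 36.2 CPM in cKOm. The cysteine-conjugate lyases Kyat1 and Kyat3 had -0.92 ± 0.12 (SE, adjusted p = 7.53e-06) and -0.57 ± 0.11 (SE, adjusted p = 0.00153). Sulfite oxidase, Suox, had -0.43 ± 0.09 (SE, adjusted p = 0.00225). The 2 remaining calls were 1 lower and 1 higher. The interaction of genotype and sex was called for 6 of the 53, beside 2.31% of all tested genes: Shmt2, Ftcd, Inmt, Pipox, Ethe1 and Kyat1. Without the 5 kidneys with most Alb 6 of the 14 were still called in males, all lower: Shmt2, Inmt, Ethe1, Kyat1, Kyat3 and Suox. Shmt1, Ftcd, As3mt, Tpmt, Chdh, Aldh7a1, Pipox and Gclm missed the threshold in that fit, which has 2 Ctrlm kidneys, with adjusted p of 0.0594 to 0.613. Their log2 fold changes there were 0.35 for Shmt1, -2.38 for Ftcd, 0.18 for As3mt (0.31 with all kidneys), -0.36 for Tpmt, -0.43 for Chdh, -0.31 for Aldh7a1, -0.52 for Pipox and -0.33 for Gclm (-0.30 with all kidneys). With the liver score as a covariate 9 of the 53 were called, all lower, and Shmt1 (0.31, adjusted p = 0.0801), Ftcd (-1.88, adjusted p = 0.166), As3mt (0.34, adjusted p = 0.0693), Aldh7a1 (-0.41, adjusted p = 0.0537) and Gclm (-0.32, adjusted p = 0.0698) missed it. Over all genes the main fit called 667 higher and 789 lower in males. Those counts were 359 and 499 with the liver score, and 172 and 427 without the 5 kidneys.

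**Figure D5:**
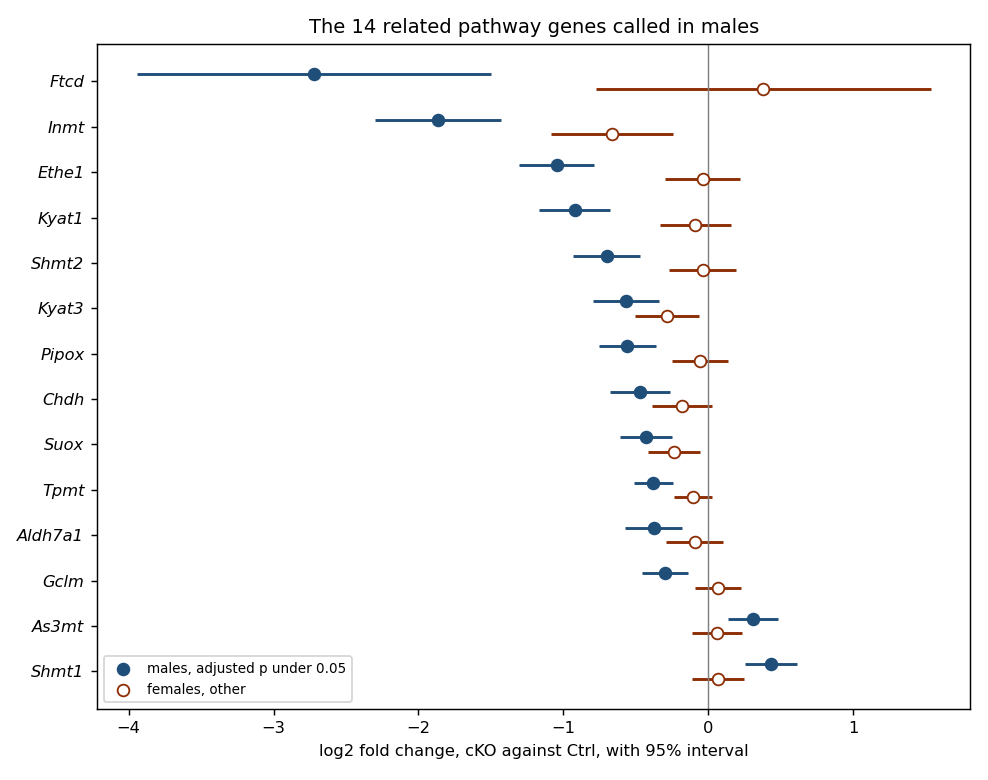
Log2 fold change of cKO against Ctrl kidneys (horizontal) for the 14 related genes called in males, beside their female values, with 95% intervals. Filled points passed an adjusted p of 0.05. In males 12 lie below 0, from Ftcd at -2.72, and 2 above, and no female point is filled.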

How the data were processed

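Whole-kidney mRNA of 24 mice was sequenced from libraries of a stranded kit. Per the labels, reads were processed with cutadapt 1.8, STAR 2.5.3a and HTSeq 0.9.1 on GRCm38. The authors deposited whole-number counts per gene, 1 file a kidney, not normalized. The 5 closing lines of each file, 34.0% to 41.5% of its total, name no gene and were left out. Whether counting used the strand, and how the authors' annotation release relates to the identifiers, is not given in the sources used here. Names and positions came from GENCODE M21, which held 55154 of the 55335 identifiers.

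Groups came from the labels. Genes that reached 1 CPM in any kidney were tested by edgeR 4.0.16 in R 4.3.3, with TMM scaling, quasi-likelihood tests and 1 model of the 4 groups. P values were adjusted by Benjamini-Hochberg over the 2 genotype contrasts jointly, and over all genes within each other contrast, with a threshold of 0.05. For levels, CPM used the total of the tested genes scaled by TMM. For the filter and for the count of 3 below, it used all counts on genes, without TMM. SE is the log2 fold change divided by the root of its F statistic. A count of 3 corresponds to 0.105 to 0.155 CPM, and covers counting error only. Alternatives were limma-voom (limma 3.58.1), DESeq2 1.42.0, RLE scaling, other filters and adjustments, each sex alone, the liver score, a block for the replicate number, and each kidney left out. The fit without the 5 kidneys over 100 CPM of Alb was added after seeing the data. The fitting was tested on simulated data. Kidneys with the same number come from different mice, and their deviations had r of -0.20 to 0.12 over 36 pairs, so they were not paired.

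Exact permutation tests used all 924 arrangements of 6 against 6 and all 720 pairings of 6, for which 0.00216 is the smallest p that 6 against 6 can give by arrangement. Named were all 10 members, Pex5, Alb, the liver markers as a list, of the wider list every gene called in either sex (the 12 with the largest change with values), and for each member the 2 genes most alike. Some genes that these rules name are not reported here. The members and lists were chosen with earlier results of these data known. Promoter sequences are RefSeq's on GRCm38.p6. Shared 50-base stretches were sought in GENCODE transcripts. Tables and figures used Python 3.11.15, pandas 2.3.3, numpy 2.4.6, scipy 1.17.1 and matplotlib 3.10.9.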

Additional observations from a re-analysis of the deposited data

Results flagged for a closer look

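Among 40 groups of 6 kidneys, 1 for each gene and group, 9 held a kidney far from the others by Dixon's test, where chance gives about 1 in 20. Ctrlf replicate 5 was such a kidney for 4 genes: high for Mat2a at 522 CPM, for Ahcy at 51.4 CPM and for Csad at 117 CPM, and low for Cdo1 at 92.1 CPM. cKOm replicate 1 was high for Cbs at 125 CPM and for Sardh at 299 CPM. Bhmt was high in cKOm replicate 4, at 9.78 CPM, a kidney with 235 CPM of Alb, and in Ctrlf replicate 3, at 53.5 CPM, with 26 CPM of Alb. Ahcy was high in cKOf replicate 6 at 38.5 CPM.

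The log2 fold change in males minus that in females passed the interaction test for 4 members, at -0.62 for Bhmt2, -0.91 for Ahcy, -0.61 for Cdo1 and -0.995 for Csad. It also passed for 6 genes of the wider list, at -0.66 for Shmt2, -3.10 for Ftcd, -1.20 for Inmt, -0.50 for Pipox, -1.01 for Ethe1 and -0.83 for Kyat1.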

How the results depend on the processing

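Among single genes, 2512 of 2592 values under an alternative stayed on their side of the threshold, 58 lost a call, 22 gained one, and no called value changed sign. With the liver score as a covariate, 2 members were called for the interaction, 4 in Ctrlm against Ctrlf and 9 of the wider list in males. Without the kidneys over 100 CPM of Alb the same 3 counts were 2, 4 and 7, the members called in males were 5 in place of 7, and all genes called in males were 172 higher and 427 lower in place of 667 and 789. That fit has 2 Ctrlm kidneys. With the liver score as a covariate, all genes called in males were 359 higher and 499 lower. The wider list in females had 1 call with limma-voom, with DESeq2 and with every gene that had a count.

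With each kidney left out, the members called were 7 to 8 in males, 1 to 1 in females, 3 to 6 for the interaction, 7 to 8 in Ctrlm against Ctrlf and 2 to 3 in cKOm against cKOf. Wider-list calls were 12 to 15 in males and 0 to 1 in females, with 1 call, of Gclc, without Ctrlf replicate 1 and, of Inmt, without Ctrlf or cKOf replicate 6. The log2 difference of Alb in males was -2.66 to -1.58, with an exact p of 0.0433 without Ctrlm replicate 6. With the replicate block, 7 members were called in males, 1 in females and 3 for the interaction, where Ahcy was lost (adjusted p = 0.0521). No pairing stands behind that block.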
